A study of Mus musculus with 10 samples.

Results

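A set of 10 genes that mark dendritic cells, among the 36528 gene identifiers of the deposited tables, was followed in RNA from purified tumour-associated macrophages. The genes were given by name and found by Entrez identifier. Xcr1, Clec9a and Batf3 mark type 1 conventional dendritic cells, Flt3 and Zbtb46 conventional dendritic cells in general, and Cd209a type 2 and monocyte-derived cells. Ccr7 and Fscn1 mark migratory, mature cells, and Siglech and Cox6a2 plasmacytoid dendritic cells. The macrophages came from MC-38 tumours (a mouse colon carcinoma line) carried by C57Bl/6 mice. In 5 libraries the mice had received anti-MerTK, an antibody against a receptor tyrosine kinase that macrophages use to engulf dying cells, and in 5 libraries anti-gp120, an antibody against an HIV envelope protein that served as the control. RNA was profiled 24 h after treatment. The labels name no sorting markers, age or dose, and do not say whether each library is a separate mouse, so the spread between libraries may be technical.

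Dendritic cells and macrophages share much of their phagocytic and antigen-presenting machinery, and few genes separate them. Conventional dendritic cells depend on the growth factor receptor Flt3 and express the transcription factor Zbtb46. The type 1 subset needs the transcription factors Batf3 and Irf8 and takes up dead cells for cross-presentation to CD8 T cells. The type 2 subset presents mainly to CD4 T cells, mature cells of either subset migrate to lymph nodes through Ccr7, and plasmacytoid cells make large amounts of type I interferon. In whole-population RNA, fewer cells of a type and less RNA per cell cannot be told apart.

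The libraries held 33159858 to 46108687 counted reads. The purified cells carried the RNA of macrophages: all 17 genes of a macrophage list were tested, with mean RPKM (reads scaled by the authors to gene length and library size) between 17.1 for Mertk and 7673 for Lyz2, and a median of 489. In CPM (library-size-scaled counts), Mertk itself averaged 78.9 ± 4.96 in the anti-MerTK libraries, against 91.1 ± 14.3 in the anti-gp120 libraries (SD, n = 5 each). Its log2 fold change of -0.21 (SE 0.10) did not pass edgeR's quasi-likelihood test (adjusted p = 0.263). The antibody binds the protein, so this RNA level checks no label. Over all 13588 tested genes, 438 passed with a Benjamini-Hochberg adjusted p under 0.05 (3.22%), of which 251 were higher (1.85%) and 187 lower (1.38%).

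Genes of 1 cell type did not share a level. RNA of the 3 type 1 genes and of Cox6a2 was near or above the middle of all tested genes, except that Clec9a lay above 39.8% of them, while Flt3, Zbtb46 and Siglech were nearly absent. Per gene length, Batf3 stood highest at a mean of 21.5 RPKM over the 10 libraries (range 11.8 to 32.4), above 77.7% of the tested genes. Its range did not overlap that of Cox6a2, the next in order, at 6.07 RPKM (3.17 to 9.86). Cox6a2 and Xcr1 (5.61 RPKM, 2.56 to 11.3) overlapped over most of their ranges, as did Clec9a (3.20 RPKM, 1.11 to 7.55) and Ccr7 (3.07 RPKM, 0.877 to 12.9). Fscn1 followed at 1.54 RPKM (0.532 to 3.81) and Cd209a at 0.611 RPKM (0.0498 to 1.39), and each of these ranges overlapped its neighbours' too. The last 3 were Flt3 at 0.0571 RPKM (0.00591 to 0.167), Zbtb46 at 0.0286 RPKM (0.0156 to 0.0512) and Siglech at 0.00291 RPKM (0 to 0.0196). Fewer than 1% of tested genes lay below Flt3 (0.846%) or Zbtb46 (0.14%). Xcr1 lay above 50.9% of them in RPKM, in the same RNA.

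**Figure D1:**
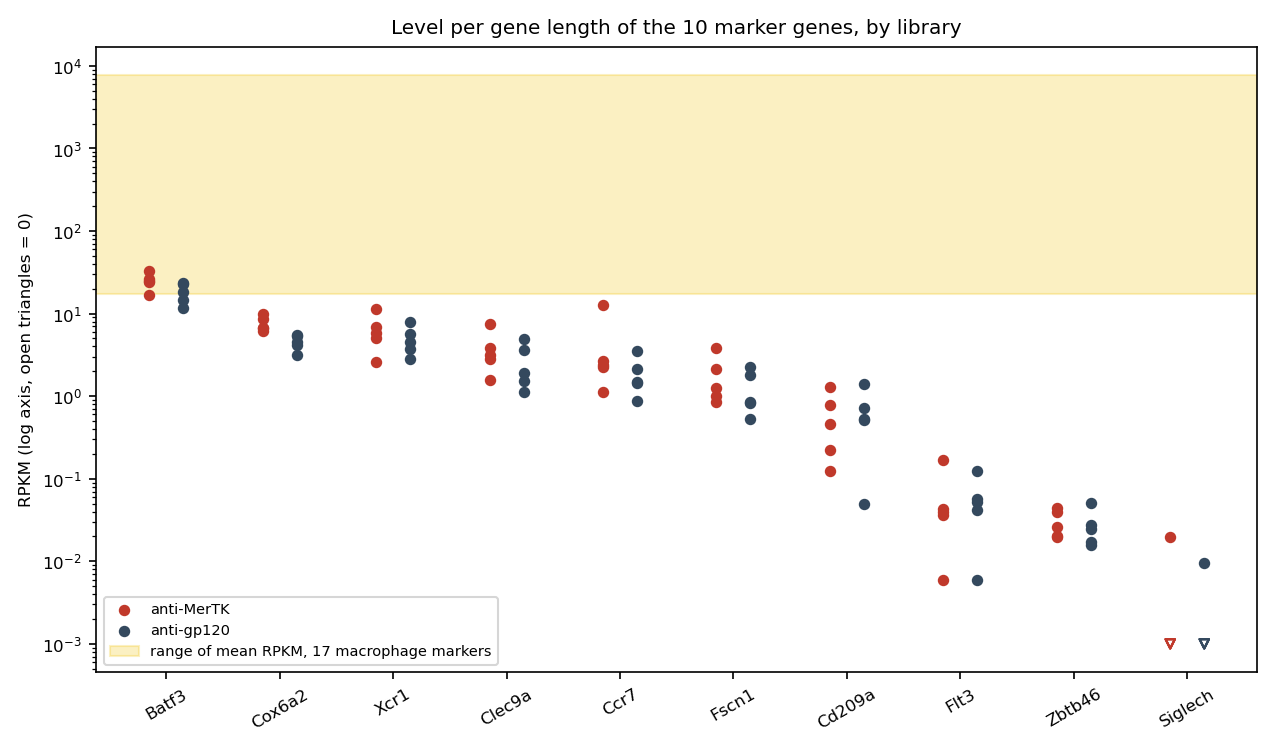
RPKM (log axis) of the 10 marker genes in each library, ordered by mean level, with anti-MerTK libraries left of anti-gp120 libraries for each gene. The yellow band spans the mean RPKM of the 17 macrophage genes, 17.1 to 7673, and of the 10 genes Batf3 alone has a mean inside it. Open triangles stand for libraries with a value of 0, which occur for Siglech only.

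The promoters of the type 1 genes are shown because these genes varied together across libraries, as described further on. Each line gives the 250 bases before the annotated start, 5′ to 3′ on the gene's strand, from RefSeq on GRCm38.p6, and capitals mark a match to a searched motif.
Xcr1 (chr9:123862030-123862279, minus strand): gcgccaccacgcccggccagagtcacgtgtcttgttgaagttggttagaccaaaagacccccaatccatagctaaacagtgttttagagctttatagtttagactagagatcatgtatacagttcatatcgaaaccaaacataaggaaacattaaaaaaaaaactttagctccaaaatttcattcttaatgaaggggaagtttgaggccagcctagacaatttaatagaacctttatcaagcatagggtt
Clec9a (chr6:129408612-129408861, plus strand): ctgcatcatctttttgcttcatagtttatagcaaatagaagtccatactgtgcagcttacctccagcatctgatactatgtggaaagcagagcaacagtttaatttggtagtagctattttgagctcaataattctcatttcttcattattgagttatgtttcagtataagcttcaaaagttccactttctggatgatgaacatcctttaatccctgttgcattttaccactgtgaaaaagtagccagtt
Batf3 (chr1:191098164-191098413, plus strand): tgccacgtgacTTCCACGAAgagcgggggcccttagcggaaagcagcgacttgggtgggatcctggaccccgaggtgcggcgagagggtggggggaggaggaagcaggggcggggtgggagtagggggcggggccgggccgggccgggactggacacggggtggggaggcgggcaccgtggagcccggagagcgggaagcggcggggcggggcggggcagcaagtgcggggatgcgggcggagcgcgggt
The search covered 4 motifs on both strands, and a match is a description of letters only. The interferon-stimulated response element core (GAAA, any 2 bases, GAAA) is in 2.98% of 32851 promoter windows of this length, the AP-1 site (TGANTCA) in 6.75%, the gamma-activated site (TTCNNNGAA) in 7.02% and the composite of PU.1 and interferon regulatory factors (GGAA, any 2 bases, GAAA, which can overlap the first) in 2.3%. Batf3 had 1 match, a gamma-activated site that begins 239 bases before the start, and Xcr1 and Clec9a had 0. The Batf3 window was 76% G or C, against 38.8% in Xcr1 and 35.6% in Clec9a. Of the other members in the table, Zbtb46 and Siglech had 1 match each and Flt3, Cd209a and Fscn1 had 0. The Zbtb46 window (chr2:181424389-181424638) lies inside the RefSeq span of Zbtb46, so its match is not shown to be promoter sequence. GENCODE M21, another annotation, starts Batf3 at 191097847, so the Batf3 window lies inside the gene there. Ccr7 and Cox6a2 are not among the promoters used here.

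Type 1 genes were detected in all 10 libraries and none passed the test. Xcr1 is the receptor for the chemokine Xcl1, which T and NK cells release, and lies on GRCm38 chromosome 9, 123852315 to 123862029. It gave 30.3, 50.4, 25.8, 22.7 and 11.3 CPM in the anti-MerTK libraries (replicates 1 to 5), against 24.8, 16.7, 19.8, 12.6 and 34.6 CPM in the anti-gp120 libraries. Anti-MerTK replicate 2 was the highest of all and anti-MerTK replicate 5 the lowest, so the groups overlapped completely. The log2 fold change was 0.37 (SE 0.37, 95% interval -0.35 to 1.09, edgeR adjusted p = 0.604), and 0.06 without anti-MerTK replicate 2.

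Clec9a is a receptor for actin filaments exposed by dead cells (chromosome 6, 129408862 to 129424764). Its levels were 14.2, 38.5, 15.9, 19.5 and 7.86 CPM in the anti-MerTK libraries, against 18.7, 5.74, 9.61, 7.74 and 25.3 CPM in the anti-gp120 libraries. Anti-MerTK replicate 2 was again highest, with anti-gp120 replicate 5 next, and the groups overlapped. The log2 fold change was 0.51 (SE 0.48, 95% interval -0.42 to 1.45, edgeR adjusted p = 0.577), and 0.10 without anti-MerTK replicate 2.

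The gene next to Clec9a, Clec1a, was singled out after its values were seen. RefSeq places its end 1919 bases from that of Clec9a, on the opposite strand, and GENCODE M21 places these ends at 129424763 (Clec9a) and 129424772 (Clec1a). Clec1a encodes another C-type lectin receptor and gave 5.53, 14.2, 6.25, 7.93 and 2.95 CPM in the anti-MerTK libraries, against 8.05, 2.86, 4.39, 3.36 and 9.34 CPM in the anti-gp120 libraries. Its log2 CPM followed that of Clec9a closely over the 10 libraries (Pearson r = 0.991, permutation p = 1e-05, the smallest that 100000 permutations give). Spearman rho was 0.976 (permutation p = 5e-05). Adjusted over the 2 pairs of neighbours that were correlated, these permutation p were 2e-05 and 0.0001. That adjustment does not cover the other neighbours with values. Without the 2 libraries farthest from the Clec9a median r was 0.986. Whether counting used strand is not given in the sources used here, so a share of reads from 1 of these genes in the count of the other was not tested. Clec12b, whose RefSeq span contains Clec9a, had at most 5 reads in a library.

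Batf3, the transcription factor of the type 1 lineage, which activated T cells and other cells also express (chromosome 1, 191098414 to 191108943), gave 18.5, 25.2, 20.3, 19.5 and 12.96 CPM in the anti-MerTK libraries. In the anti-gp120 libraries it gave 14.1, 9.31, 17.4, 11.2 and 18.3 CPM. All anti-MerTK libraries but replicate 5 lay above every anti-gp120 library. The log2 fold change of 0.46 (SE 0.20, 95% interval 0.06 to 0.86) had an unadjusted p = 0.0463 and did not pass after adjustment over all genes (edgeR adjusted p = 0.231). With 1 surrogate variable in the model Batf3 passed (log2 fold change 0.47, edgeR adjusted p = 0.0281).

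The 2 genes of conventional dendritic cells in general were barely detected. Flt3, the receptor for Flt3 ligand (chromosome 5, 147330741 to 147400489), had 8, 1, 9, 10 and 31 reads in the anti-MerTK libraries, against 10, 27, 1, 8 and 12 reads in the anti-gp120 libraries. Anti-MerTK replicate 5 and anti-gp120 replicate 2 held the most, and these 2 libraries had 58 of the 117 reads. Zbtb46, a zinc finger repressor (chromosome 2, 181371009 to 181493262), had 15, 5, 7, 9 and 11 reads after anti-MerTK, against 7, 17, 7, 5 and 5 reads after anti-gp120. The groups overlapped for both genes, and both were below the expression filter. Flt3 averaged 0.303 ± 0.323 CPM after anti-MerTK and 0.293 ± 0.224 CPM after anti-gp120 (SD, n = 5 each, two-sided exact permutation p = 0.968). Zbtb46 averaged 0.235 ± 0.0887 CPM after anti-MerTK and 0.214 ± 0.115 CPM after anti-gp120 (SD, n = 5 each, two-sided exact permutation p = 0.802). Without the filter, edgeR gave log2 fold changes of 0.02 (SE 0.71) for Flt3 and 0.13 (SE 0.45) for Zbtb46, so changes of either gene were not detectable at this depth. Zgpat and Lime1 overlap the annotated span of Zbtb46 on the other strand, and a share of their reads in its count was not tested.

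Cd209a, a C-type lectin of type 2 and monocyte-derived dendritic cells (chromosome 8, 3743395 to 3748984), belongs to a family of close paralogs, whose shared reads unique alignment would leave out. It had 0.327, 0.185, 1.15, 0.680 and 1.92 CPM in the anti-MerTK libraries, against 1.07, 2.09, 0.763, 0.785 and 0.0736 CPM in the anti-gp120 libraries. The lowest and the highest library, which differed 28.4-fold, were both anti-gp120 libraries. The log2 fold change was -0.17 (SE 0.70, 95% interval -1.53 to 1.19, edgeR adjusted p = 0.914), and it was positive when anti-MerTK replicate 1 or 2 or anti-gp120 replicate 2 was left out (0.04, 0.08 and 0.35).

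Neither migratory gene passed, and 1 anti-MerTK library held most of the Ccr7 reads of its group. Ccr7, the receptor for the lymph node chemokines Ccl19 and Ccl21 (chromosome 11, 99144199 to 99155077), gave 5.88, 2.47, 5.20, 4.96 and 28.3 CPM in the anti-MerTK libraries, against 4.75, 7.94, 1.92, 3.14 and 3.26 CPM in the anti-gp120 libraries. Anti-MerTK replicate 5 held 1016 of the 1794 reads of its group, and the other 4 anti-MerTK libraries lay within the anti-gp120 range. The log2 fold change of 1.15 (SE 0.64, 95% interval -0.10 to 2.40) did not pass (edgeR adjusted p = 0.332) and was 0.14 without that library.

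Fscn1, the actin-bundling protein fascin of dendrites (chromosome 5, 142960355 to 142973189), gave 3.36, 2.28, 5.66, 2.67 and 10.1 CPM after anti-MerTK, against 4.78, 6.14, 1.40, 2.27 and 2.18 CPM after anti-gp120. Replicate 5 was again the highest anti-MerTK library and replicate 2 the highest anti-gp120 library. The log2 fold change was 0.51 (SE 0.49, 95% interval -0.44 to 1.47, edgeR adjusted p = 0.585), and 0.06 without anti-MerTK replicate 5.

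Anti-MerTK replicate 5 and anti-gp120 replicate 2 also had the highest summed CPM of 6 fibroblast genes, 41.5 and 29.6, against 6.27 to 23.0 in the other 8 libraries. The sum of 13 monocyte genes was likewise highest in them (3711 and 3723 CPM, against 1825 to 3216 in the others). The part of these cells in the levels of Flt3, Cd209a, Ccr7 and Fscn1 was not tested.

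Of the 2 plasmacytoid genes, Siglech was close to undetected and Cox6a2 rose. Siglech, a surface receptor of plasmacytoid cells that pairs with the adaptor DAP12 (chromosome 7, 55768154 to 55779448), had 0 reads in 8 libraries, 2 in anti-MerTK replicate 5 and 1 in anti-gp120 replicate 4. A count of 0 allows up to 3 reads, or 0.0680 to 0.0926 CPM per library, which covers counting error only. No difference was detectable at this depth. Cox6a2, a subunit of mitochondrial cytochrome c oxidase best known from heart and skeletal muscle (chromosome 7, 128205435 to 128206366), was at 4.39, 6.48, 4.38, 5.64 and 4.07 CPM in the anti-MerTK libraries, against 2.72, 2.11, 2.96, 3.49 and 3.63 CPM in the anti-gp120 libraries. Every anti-MerTK library lay above every anti-gp120 library, which held in this direction for 3.26% of all tested genes.

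Cox6a2 rose 1.67-fold, to 4.99 ± 1.03 CPM after anti-MerTK, against 2.98 ± 0.613 CPM after anti-gp120 (SD, n = 5 each; log2 fold change 0.74, SE 0.18, edgeR adjusted p = 0.0436). With single libraries left out, the call held without anti-MerTK replicate 5 (adjusted p = 0.0298) or anti-gp120 replicate 5 (adjusted p = 0.0398), and was lost without anti-MerTK replicates 1, 2, 3 or 4 (adjusted p = 0.0795, 0.0957, 0.0837 and 0.0837) or anti-gp120 replicates 1, 2, 3 or 4 (adjusted p = 0.0652, 0.0995, 0.0718 and 0.0791). Cox6a2 overlaps Itgad, an integrin gene on the opposite strand, by 70 bases in RefSeq, and lies wholly inside it in GENCODE M21. Itgad gave 0.888, 1.57, 1.15, 1.36 and 0.697 CPM in the anti-MerTK libraries, against 0.714, 0.384, 0.763, 1.19 and 0.981 CPM in the anti-gp120 libraries. The groups overlapped, and the log2 fold change was 0.49 (SE 0.31, edgeR adjusted p = 0.385). Its log2 CPM followed that of Cox6a2 over the 10 libraries (Pearson r = 0.866, permutation p = 0.0012, adjusted 0.0012; Spearman rho = 0.733, permutation p = 0.019, adjusted 0.019), with r = 0.646 without the 2 libraries farthest from the Cox6a2 median and 0.937 with the group means removed. The adjusted p again cover only the 2 pairs of neighbours that were correlated. With no strand setting known, a share of Itgad reads in the Cox6a2 count cannot be told apart from Cox6a2 reads.

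**Figure D2:**
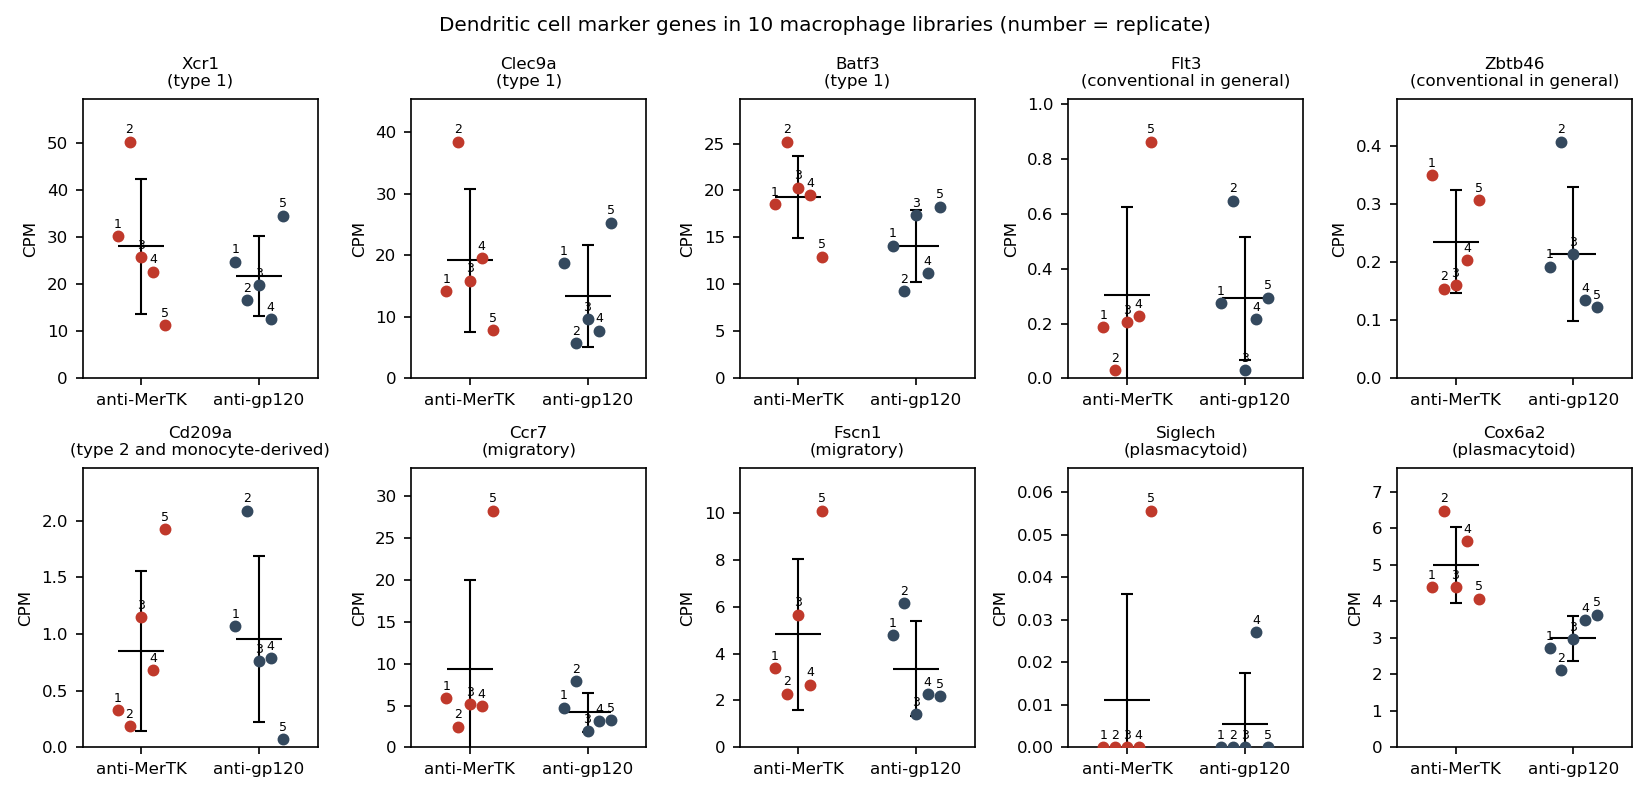
CPM of each of the 10 marker genes in every library, with its replicate number, on an axis from 0; anti-MerTK is on the left. Horizontal bars are group means and whiskers 1 SD (n = 5), cut at 0. The groups separate for Cox6a2, and anti-MerTK replicate 5 stands apart for Ccr7 (28.3 CPM) and Flt3.

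Of the 10 genes, 7 passed the expression filter (Flt3, Zbtb46 and Siglech did not). By edgeR 1 was higher and 0 lower, beside 3.22% of all tested genes in either direction. DESeq2 and limma-voom also gave 1 higher and 0 lower, beside 9.19% and 7.62% of all genes in either direction. At an unadjusted p under 0.05, 2 were higher and 0 lower, beside 20.9% of all tested genes in either direction. The groups did not overlap for 1 of the 7, beside 5.97% of all tested genes. The 7 log2 fold changes ranged from -0.17 to 1.15 with a median of 0.51, and over all tested genes the median was -0.006.

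Across libraries the members varied in 2 sets. Xcr1, Clec9a and Batf3 were high together: over 10 libraries log2 CPM of Xcr1 and Clec9a had Pearson r = 0.891 (permutation p = 0.00085, adjusted over 36 pairs 0.012) and Spearman rho = 0.830 (permutation p = 0.0051, adjusted 0.061). The correlation of Clec9a and Batf3 was r = 0.850 (permutation p = 0.0021, adjusted 0.019; rho = 0.806, permutation p = 0.0075, adjusted 0.067), and that of Xcr1 and Batf3 r = 0.798 (permutation p = 0.0059, adjusted 0.033; rho = 0.782, permutation p = 0.011, adjusted 0.08). Leaving out the 2 libraries farthest from the median of the first gene gave 0.828, 0.661 and 0.735. With the group means removed, r was 0.886, 0.851 and 0.827. Cox6a2 was also high where Batf3 was (r = 0.791, permutation p = 0.0065, adjusted 0.033; rho = 0.830, permutation p = 0.0049, adjusted 0.061; r = 0.701 without the 2 farthest libraries and 0.686 with the group means removed). Its correlations with Clec9a (r = 0.663, permutation p = 0.035, adjusted 0.11; rho = 0.600, permutation p = 0.073, adjusted 0.21) and Xcr1 (r = 0.475, permutation p = 0.16, adjusted 0.25; rho = 0.503, permutation p = 0.14, adjusted 0.26) did not pass.

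The second set was Ccr7 and Fscn1, with Flt3 by Pearson r but not by adjusted Spearman rho. Ccr7 and Fscn1 had r = 0.903 (permutation p = 4e-05, adjusted 0.0014) and rho = 0.891 (permutation p = 0.001, adjusted 0.037), with r = 0.806 without the 2 farthest libraries. Flt3 and Ccr7 had r = 0.846 (permutation p = 0.00099, adjusted 0.012) and rho = 0.648 (permutation p = 0.05, adjusted 0.2), with r = 0.731 without the 2 farthest. For Flt3 and Fscn1, r was 0.801 (permutation p = 0.0055, adjusted 0.033) and rho 0.576 (permutation p = 0.088, adjusted 0.21), with r = 0.543 without the 2 farthest. Cd209a ran against Xcr1 (r = -0.766, permutation p = 0.0099, adjusted 0.045; rho = -0.733, permutation p = 0.021, adjusted 0.095) and Clec9a (r = -0.751, permutation p = 0.012, adjusted 0.047; rho = -0.733, permutation p = 0.02, adjusted 0.095). Without the 2 farthest libraries these r were -0.642 and -0.596. Its correlation with Batf3 did not pass (r = -0.650, permutation p = 0.041, adjusted 0.11; rho = -0.600, permutation p = 0.073, adjusted 0.21). Xcr1 and Ccr7 had r = -0.534 (permutation p = 0.11, adjusted 0.21) and rho = -0.321 (permutation p = 0.37, adjusted 0.46). This r became 0.11 without the 2 farthest libraries and -0.694 with the group means removed. Without the 2 libraries farthest for the first gene, r of Xcr1 with Flt3, Ccr7 and Fscn1 was -0.035, 0.11 and 0.061. For Clec9a these r were -0.02, -0.259 and -0.124, and for Batf3 they were -0.706, -0.642 and -0.559. Flt3 had as few as 1 read in a library, so its values carry much counting error.

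**Figure D3:**
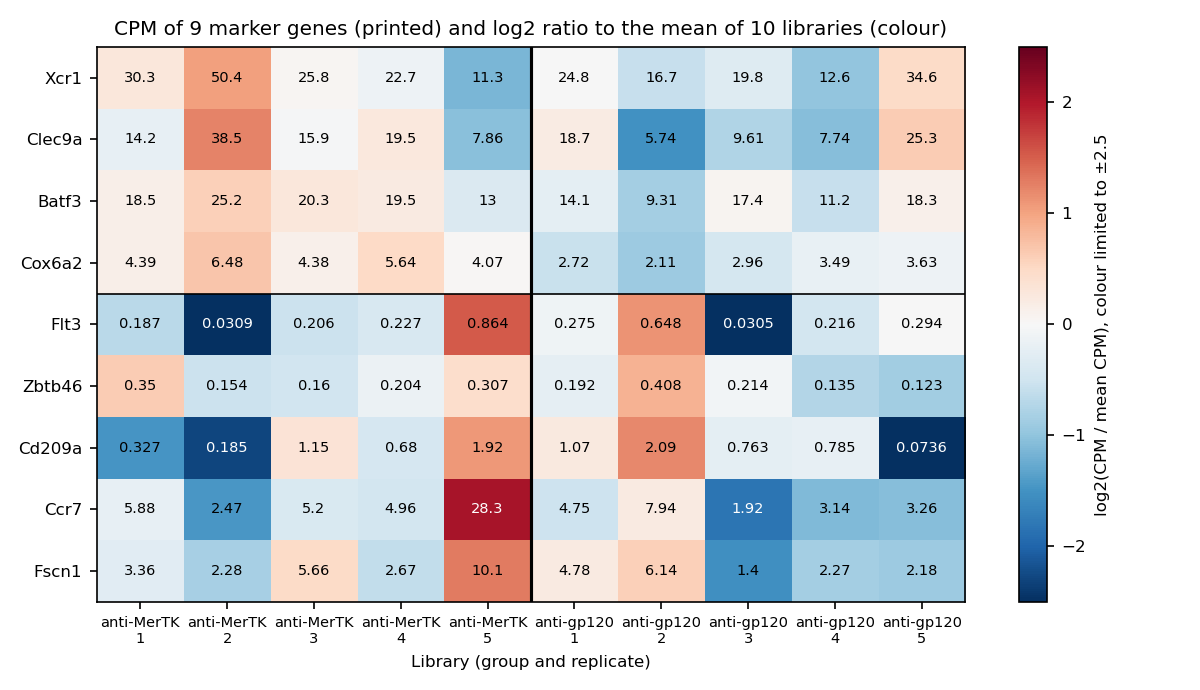
CPM of 9 marker genes (printed) in the 10 libraries, anti-MerTK on the left, coloured by the log2 ratio to the gene's mean over libraries. Anti-MerTK replicate 2 is high in the upper 4 genes and low in the lower 5, and anti-MerTK replicate 5 and anti-gp120 replicate 2 are high in the lower 5. Siglech, with 3 reads in all, is left out.

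**Figure D4:**
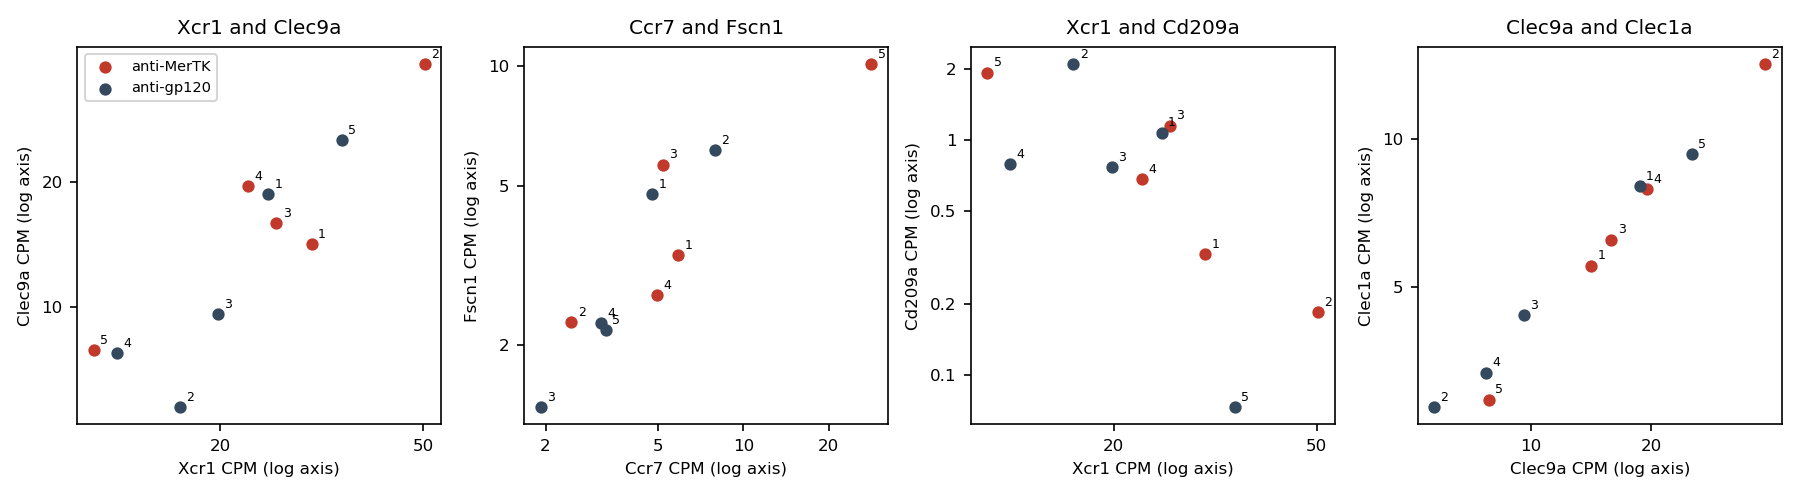
CPM of pairs of genes on log axes, 1 point per library with its replicate number. Xcr1 and Clec9a rise together (r = 0.891), as do Ccr7 and Fscn1 (0.903) and Clec9a and its neighbour Clec1a (0.991), and Xcr1 and Cd209a run in opposite directions (-0.766).

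By Pearson r of log2 CPM over the 10 libraries, among 10748 or 10749 named genes with a mean of at least 1 CPM, the genes most like each member were found as a description. They share libraries and depth, and were picked as the highest of many. For Xcr1 these were Ficd (0.982), Ube2e2 (0.956) and Zdhhc7 (0.947). For Flt3 they were Zc3h12c (0.947), Adora2a (0.939) and Col4a2 (0.929), and for Cd209a Morrbid (0.929), Mgl2 (0.914) and Tgm1 (0.913). For Ccr7 they were F7 (0.954), Sdc1 (0.945) and Ccl22 (0.935). Mgl2, a lectin of type 2 dendritic cells and some macrophages, and Ccl22, a chemokine of mature dendritic cells, are on the wider lists for the same cells. None of the 12 genes passed the test between groups (edgeR adjusted p from 0.267 to 0.967). Siglech had too few reads for this.

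Wider lists gave the other genes of each cell type, without the members. Of 105 genes in 7 lists, 81 were tested, and 3 were higher and 0 lower. Over all tested genes 1.85% were higher and 1.38% lower. At an unadjusted p under 0.05 these lists had 12 higher and 9 lower genes, beside 20.9% of all tested genes in either direction. DESeq2 gave 9 and 2, beside 9.19% of all genes with an adjusted p, and limma-voom 7 and 3, beside 7.62%. The median log2 fold change was 0.03.

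On the type 1 list 14 of 17 genes were tested, 1 was higher and 0 lower, and the median log2 fold change was 0.07. At an unadjusted p under 0.05, 2 were higher and 0 lower, and DESeq2 and limma-voom each gave 1 higher and 0 lower. Ifi205, a DNA-binding PYHIN protein that interferon also induces, rose to 69.7 ± 18.9 CPM after anti-MerTK, against 25.4 ± 5.96 CPM after anti-gp120 (SD, n = 5 each; log2 fold change 1.46, SE 0.20, edgeR adjusted p = 0.0103). Irf8, which the type 1 lineage needs and macrophages also express, was at 486 ± 23.4 and 471 ± 81.2 CPM (anti-MerTK before anti-gp120; log2 fold change 0.05, edgeR adjusted p = 0.840). Gcsam and Clnk, also on this list, had at most 0.17 CPM and 0 reads. Of the 17 genes, 4 were under 1 CPM in every library. Others were well above it, among them Snx22 at 310 ± 16.7 and 294 ± 29.2 CPM, in the same order. Cadm1 was at 223 ± 62.6 and 221 ± 31.9 CPM. Irf8, Gcsam, Clnk, Snx22 and Cadm1 were chosen after their values were seen.

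On the core list of conventional dendritic cells 14 of 15 were tested, 1 was higher and 0 lower, with a median log2 fold change of -0.25. At an unadjusted p under 0.05, 3 were higher and 2 lower. DESeq2 gave 2 higher and 1 lower, and limma-voom 1 higher and 2 lower. Klri1, a lectin-like receptor also found on NK cells, rose to 1.46 ± 0.470 CPM after anti-MerTK, against 0.482 ± 0.280 CPM after anti-gp120 (SD, n = 5 each; log2 fold change 1.56, SE 0.38, edgeR adjusted p = 0.0477). Its call held with anti-gp120 replicate 2 left out and was lost with any other library left out (adjusted p from 0.0554 to 0.126).

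On the type 2 list 0 of 10 tested genes (of 15) passed, 0 at an unadjusted p under 0.05, and 0 in DESeq2 and limma-voom. Cd209d, a paralog of Cd209a, and Ltb, the cytokine lymphotoxin beta, had the smallest p, with log2 fold changes of -0.96 (SE 0.81) and 0.26 (SE 0.24).

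On the migratory list 23 of 24 were tested, 1 was higher and 0 lower. At an unadjusted p under 0.05, 3 were higher and 2 lower, and DESeq2 and limma-voom each gave 2 higher and 0 lower. Marcksl1, an actin-linked protein kinase C substrate that is not restricted to dendritic cells, rose to 149 ± 9.25 CPM after anti-MerTK, against 108 ± 9.54 CPM after anti-gp120 (SD, n = 5 each; log2 fold change 0.47, SE 0.07, edgeR adjusted p = 0.0114). Over the list, the median log2 fold change was 0.11.

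On the plasmacytoid list 0 of 10 tested genes (of 18) passed. At an unadjusted p under 0.05, 2 were higher and 4 lower, and DESeq2 and limma-voom each gave 2 higher and 1 lower. The adaptor protein Sla2 and the transcription factor Runx2 had log2 fold changes of 0.31 (SE 0.08, edgeR adjusted p = 0.0517) and -0.63 (SE 0.17, edgeR adjusted p = 0.0741). Over the list, the median log2 fold change was -0.11. The extremes were Klra17 at -0.99 (SE 0.34, edgeR adjusted p = 0.136) and Pacsin1 at 1.68 (SE 0.49, edgeR adjusted p = 0.086). Klra17 and Pacsin1 were chosen after their values were seen. Of the 18 genes, 9 were under 1 CPM in every library, and Klk1 had no read.

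The growth factor and ligand list had 0 of 4 tested genes (of 10) past the threshold, with 1 higher and 1 lower at an unadjusted p under 0.05, 1 higher and 0 lower in DESeq2 and 0 in limma-voom. Csf1 and Csf2rb, a macrophage growth factor and the shared chain of the GM-CSF receptor, had log2 fold changes of 0.50 (SE 0.16) and -0.35 (SE 0.15). Ccl19 and Ccl21a, the ligands of Ccr7, had no read in any library. Of 12 lineage transcription factors, all tested, 0 passed (1 higher at an unadjusted p under 0.05, in DESeq2 and in limma-voom). Spi1 and Bcl6, which encode PU.1 and a zinc finger repressor, had log2 fold changes of 0.28 (SE 0.09) and 0.20 (SE 0.13).

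**Figure D5:**
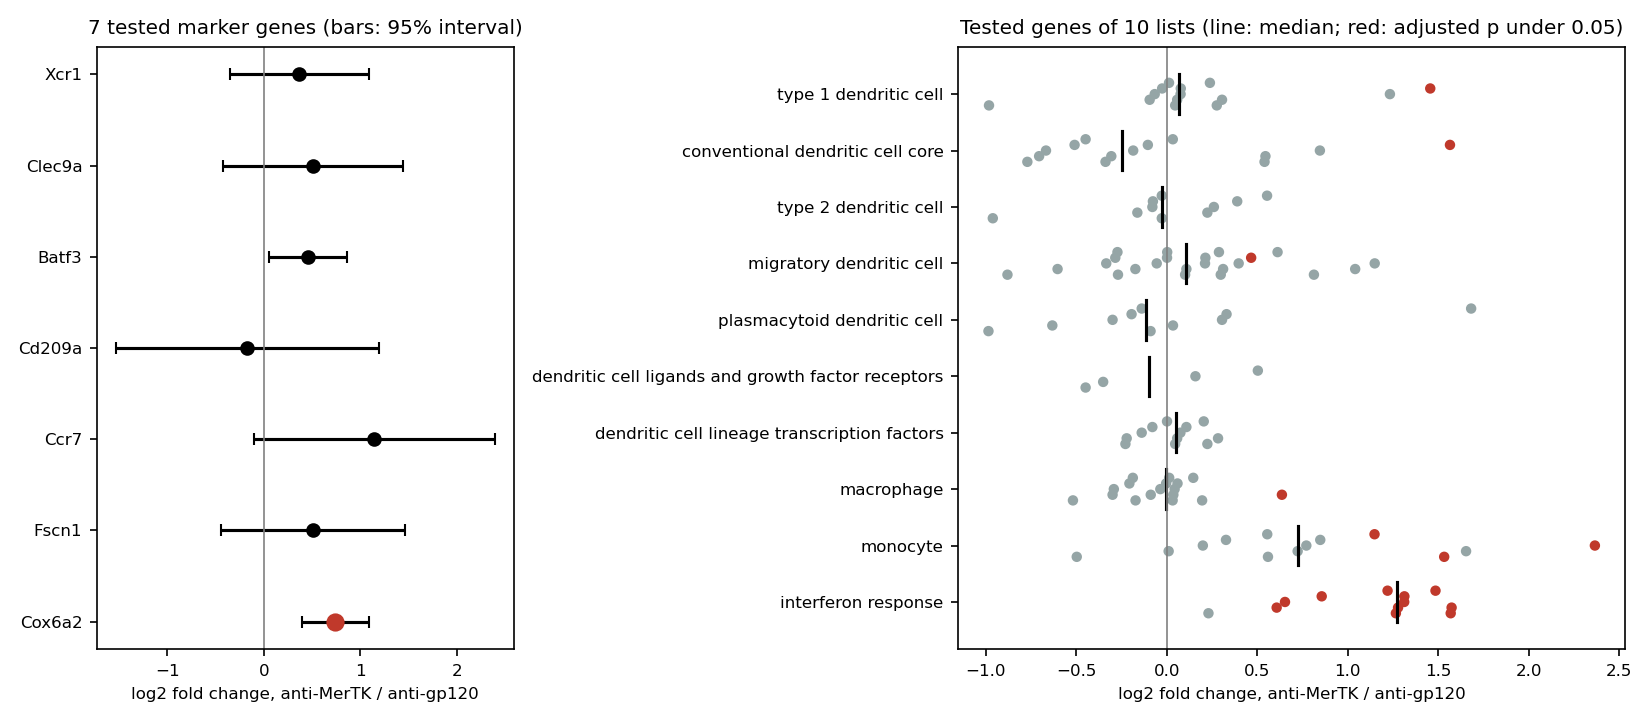
Left, log2 fold changes (anti-MerTK over anti-gp120) of the 7 tested marker genes with 95% intervals, with Cox6a2 in red as the 1 that passed. Right, log2 fold changes of the tested genes on 10 lists, with medians as vertical lines and genes with an adjusted p under 0.05 in red; the interferon list has the highest median of the 10 (1.27).

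By number of genes, those of lymphocytes, neutrophils, mast cells and basophils were mostly under 1 CPM, and those of fibroblasts and endothelium were not. Summed CPM of the T and NK cell list was 3.80 to 14.9 after anti-MerTK, against 8.12 to 14.5 after anti-gp120, and 9 of its 12 genes stayed under 1 CPM throughout. Most neutrophil genes (7 of 10) and most genes of B cells (6 of 8) and of mast cells and basophils (5 of 6) also stayed under 1 CPM, with Ngp and Ms4a2 at 0 reads. The neutrophil list sum was still 70.1 to 91.3 CPM after anti-MerTK, against 62.4 to 105 CPM after anti-gp120. Most of it was Csf3r, at 75.2 ± 12.2 and 80.4 ± 17.1 CPM in the same order. The B cell list sum was 18.2 to 31.0 CPM, against 20.5 to 40.7 CPM, and most of it was Cd79b, at 23.4 ± 5.49 and 28.3 ± 7.76 CPM (SD, n = 5 each). On the fibroblast list 1 of 6 genes stayed under 1 CPM, and the collagen gene Col3a1 had 2.41 to 13.8 CPM after anti-MerTK, against 3.45 to 17.9 CPM after anti-gp120. On the endothelial list 2 of 5 stayed under 1 CPM, and the list sum was 69.8 to 119 CPM after anti-MerTK, against 82.0 to 131 CPM after anti-gp120. Most of it was Pecam1, an adhesion molecule that macrophages also express, at 59.5 to 109 CPM after anti-MerTK, against 75.0 to 122 CPM after anti-gp120. Csf3r, Cd79b, Col3a1 and Pecam1 were chosen after their values were seen. Between groups, 0 tested genes passed on the neutrophil (3 tested), T and NK cell (5), B cell (3), fibroblast (5) and endothelial (3) lists. At an unadjusted p under 0.05 the B cell list had 1 higher and 1 lower and the endothelial list 2 higher, DESeq2 called 1 endothelial gene, and limma-voom called 0 on these lists. On the epithelial list 1 gene was tested and was lower, Cdh1 (log2 fold change -0.72, SE 0.14, edgeR adjusted p = 0.0244), while Epcam stayed at or under 0.123 CPM. On the macrophage list 1 of 17 was higher, the Fc receptor gene Fcgr1 (log2 fold change 0.64). On the monocyte list 3 of 13 were higher, Ms4a4c, Ifitm6 and Plac8 (log2 fold changes 1.15, 1.53 and 2.37). Over all tested genes 1.85% were higher and 1.38% lower. Plac8 lost its call with no expression filter (adjusted p = 0.0905). By edgeR, Plac8 also lost its call without anti-MerTK replicate 1, 2 or 3 or anti-gp120 replicate 2, 3 or 4 (adjusted p = 0.0566 to 0.109), and Fcgr1 without anti-MerTK replicate 1 or 3 or anti-gp120 replicate 2 or 4 (adjusted p = 0.0554 to 0.0781). Ifitm6 lost it without anti-MerTK replicate 1 or anti-gp120 replicate 2 or 4 (adjusted p = 0.0582 to 0.0752), and Cdh1 without anti-MerTK replicate 1, 2 or 3 or anti-gp120 replicate 2 (adjusted p = 0.0510 to 0.0708).

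Genes of the interferon response were higher in the same libraries in which Cox6a2 and Ifi205 were higher. Summed CPM of 12 such genes was 5557 to 8246 after anti-MerTK, against 2713 to 4695 after anti-gp120. As higher, 11 of the 12 passed, beside 1.85% of all tested genes, and the list was chosen with earlier results of these data known. The list holds Irf7 and Bst2, which plasmacytoid cells express strongly and interferon induces in other cells. Irf7 and Bst2 had log2 fold changes of 1.27 and 0.65 (edgeR adjusted p = 0.0117 and 0.0114), and were not picked by the rule for named genes. The part of plasmacytoid cells in their levels, and of the interferon response in the level of Cox6a2, was not tested.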

How the data were processed

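RNA-seq of polyadenylated RNA was deposited as a table per library. Reads were aligned with GSNAP to GRCm38, per the submitters' processing notes; the sources used here do not give versions, annotation, counting tool or strand setting. Per the file headers, the deposited counts are uniquely aligned reads of a gene model. The RPKM values deposited beside them carry, per the file headers, a size-factor adjustment by the authors, and equal the counts times gene and library factors within a relative deviation of 2.9e-13. RPKM values were used to compare levels between genes and CPM values, from TMM library sizes, to compare libraries.

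Of 36528 identifiers, 31049 were named from RefSeq's GRCm38.p6 table, which gave all coordinates. Unnamed genes (2.15% to 2.66% of counts) stayed in the tests. Replicates are numbered in order of deposition and pair nothing. No 2 replicates agreed within sampling noise (smallest chi-square per degree of freedom 29.0).

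The main test was edgeR 4.0.16's quasi-likelihood test (R 4.3.3) after filterByExpr, which kept 13588 genes, with treatment as the only term, two-sided, adjusted over all genes at 0.05. The SE is the log2 fold change over the square root of F, and intervals are 1.96 SE. The test was first tried on simulated data with known changes. Correlations use log2 CPM with a prior count of 2 and 100000 permutations; genes under the filter got an exact permutation test over 252 assignments. The members and lists were chosen with earlier results of these data known. Genes named are the members, Mertk, those past the threshold on each list (at most 4, otherwise the 2 of smallest p) and the 3 most similar to Xcr1, Flt3, Cd209a and Ccr7, leaving out predicted genes; on the lists of other cells and of interferon genes some are given as counts only. Irf7, Bst2 and the genes marked as chosen after their values were seen are among those named outside this rule. Of the listed B cell genes, 1 is not analysed here. Alternatives used DESeq2 1.42.0, limma 3.58.1, sva 3.50.0, other normalizations and filters, log2(RPKM + 0.1) and log2(RPKM + 1), and each library left out; the authors' size factors and a fit on 8 libraries were added after seeing the data.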

Additional observations from a re-analysis of the deposited data

Results flagged for a closer look

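In 20 groups of 5 values (10 genes in 2 groups), 4 had a library whose gap to the next exceeded 0.71 of the group's range. Chance flags about 1 group in 20 when values are normally distributed, which CPM need not be, so the count of flags is a description only. Ccr7 in anti-MerTK replicate 5, at 28.3 CPM, stood above the other 4 anti-MerTK libraries by 0.868 of the range. Flt3 in the same library, at 0.864 CPM, stood above by 0.765 of the range. Siglech, at 0.0557 CPM (2 reads) in that library and 0.0271 CPM (1 read) in anti-gp120 replicate 4, was at 0 in every other library of either group, so these rest on 3 reads in all. With the rest of a group at 0, the gap is the whole range whatever the value, so these flags carry no weight.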

How the results depend on the processing

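Leaving out each library in turn gave 70 to 654 genes past the threshold, against 438 with all libraries (the lowest when anti-gp120 replicate 4 and the highest when anti-MerTK replicate 5 was left out). For the 10 members the count was 0 to 1, against 1, and for the wider lists 2 to 6, against 3. DESeq2 called 1152 genes in all and 11 on the wider lists, limma-voom 1036 and 10, and 1 surrogate variable 832 and 9, with 2 members (Batf3 and Cox6a2). A filter of 5 CPM left 0 members called, since it removed Cox6a2. Chosen after seeing the data, the 8 libraries without anti-MerTK replicates 2 and 5 gave 204 genes and 0 members. Cd209a, never past the threshold, changed sign, with log2 fold changes from -0.684 to 0.349 over the left-out libraries (0.042 and 0.077 without anti-MerTK replicates 1 and 2). S100a8, a neutrophil gene also never past it, had 0.699 with all libraries, -0.391 to 0.937 with one left out, -0.13 in limma-voom and -0.466 in the 8 libraries. Other normalizations, no filter and the authors' size factors kept each of the 3 counts within 1.5 times, though with no filter Plac8 lost its call. The cause of these differences was not tested. No paired analysis was possible because the labels give no replicate numbers. With 5 libraries a group and SEs of 0.37 to 0.70, intervals for Xcr1, Clec9a, Cd209a, Ccr7 and Fscn1 span both directions.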
